A study of Mus musculus with 6 samples.

Results

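H3K27ac, acetylation of lysine 27 of histone H3 that marks active promoters and enhancers, was examined at 9 genes of the FGF-ERK pathway in O4AID ESCs before and after depletion of OCT4. The genes were the ligand gene Fgf4, the receptor genes Fgfr1 and Fgfr2, the feedback genes Spry2, Spry4, Spred1 and Dusp6, and the ERK target genes Etv4 and Etv5. All H3K27ac peaks overlapping a gene body in GENCODE vM21 on GRCm38, or the 10 kb on each side of it, were assigned to that gene. This gave 94 of the 31131 peaks in the series, and 91 of the 94 passed a filter of 0.5 RPKM (reads normalised to the length of the peak and the size of the library) in at least one condition. Of the 94 peaks, 64 fell to Fgfr2 through a single very long annotated transcript and are described separately, and 30 belonged to the other 8 genes: 5 to Fgf4, 6 to Fgfr1, 4 to Spry2, 1 to Spry4, 1 to Spred1, 2 to Dusp6, 3 to Etv4 and 8 to Etv5. All 30 passed the filter.

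O4AID ESCs are mouse embryonic stem cells of strain 129SV that lack endogenous Oct4 (Oct4-/-) and carry CAG Tir1, CAG Oct4AID and TetOFF Oct4 transgenes. The OCT4 made from Oct4AID carries an auxin-inducible degron, CAG is a constitutive promoter that also drives the auxin receptor Tir1, and doxycycline at 1 μg/ml kept the wild-type Oct4 transgene silent in every sample. Chromatin was taken in 3 uninduced immunoprecipitations and in 3 from cells treated for 1.5 h with 500 μM IAA, an auxin. Both groups were grown in N2B27 with 1 μM PD03, 3 μM Chiron and mLIF, so the MEK inhibitor PD03 was present in the control as well as the treated cells. These data hold no measure of OCT4 protein. The sources used here name this as 1 cell line with separate immunoprecipitations and do not say whether these came from separate cultures, so p-values measure the spread between these samples, which may be technical.

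In the FGF-ERK pathway, FGF ligands bind FGF receptor tyrosine kinases at the cell surface, and adaptor proteins pass the signal through RAS, RAF and MEK to ERK. ERK induces ETS factors such as Etv4 and Etv5, and also Sprouty, Spred and DUSP proteins that damp the pathway. In mouse ESCs, Fgf4 is the main autocrine ligand, is a well-known direct target of OCT4 and SOX2 through an enhancer in its 3′ untranslated region (UTR), and its signal through ERK readies the cells for differentiation. MEK inhibition blocks that signal in the medium used here.

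Libraries held 31634480 to 39547452 reads, of which 6.63% to 7.12% fell in peaks in uninduced cells and 4.05% to 5.15% after IAA. The median peak of a library, on log2(RPKM), changed by -0.58, so most peaks were lower on this scale, and changes of single genes are also given relative to that median peak ("centred"). All 7 ESC marker loci examined, such as Nanog, Esrrb and Klf4, had peaks, at 4.32 to 9.78 RPKM in uninduced cells. Peaks were present at 0 of 4 trophoblast, 1 of 4 primitive endoderm, 3 of 3 neural and 1 of 3 mesoderm marker loci, none of them above 1.98 RPKM in uninduced cells. Their part in the results was not tested. In bulk chromatin, fewer cells with the mark and less of the mark per cell cannot be told apart.

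OCT4 binding near these peaks is inferred from a mark in the deposited table, set where earlier ChIP-seq by others placed an OCT4 peak no more than 1 kb away. That ChIP-seq was made in another ESC line, so the mark does not measure OCT4 binding in the O4AID ESCs. Of the 30 peaks of the 8 genes, 19 (63.3%) carried the mark, against 17.6% of all peaks above the filter. The marked peaks were 3 at Fgf4, 1 at Fgfr1, 2 at Spry2, 1 at Spred1, 2 at Dusp6, 3 at Etv4 and 7 at Etv5. To show what DNA lies there, windows of 3000 bases around each peak's midpoint were read from GRCm38 and searched on both strands for the octamer ATGCNAAT, the core of the OCT4 motif, and for the SOX letters CNTTGTT. The octamer was found in 7 of the 30 windows (23.3%) and in 27.3% of the windows of all peaks above the filter. Among marked peaks it was found in 6 of 19 (31.6%), none of them at Spry2, against 43.2% of all marked peaks. In narrower windows of 1000 bases it was found in 0 of the 30 and in 9.30% of all peaks. The SOX letters alone, which are short and common, were found in 25 of the 30 and in 82.2% of all windows. A SOX match followed after 0 or 3 bases by an octamer on the same strand was found in 10 of 26457 windows (0.0378%), and 1 of these 10 was at Fgf4. A match of letters is a description of the sequence and not a binding site.

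The matches within the windows of OCT4-marked peaks at 5 of the genes are shown 5′ to 3′ on the strand of the match. Whether they are the sites behind the OCT4 mark, which comes from ChIP-seq, was not tested. The Fgf4 match lies in the annotated 3′ UTR at chr7:144864388-144864417 on the plus strand of GRCm38, the Dusp6 matches upstream of the gene at chr10:99261474-99261497 on the plus strand and chr10:99262594-99262617 on the minus strand, the Etv4 match upstream at chr11:101787656-101787679 on the plus strand, the Etv5 match in an intron at chr16:22414552-22414575 on the plus strand and the Fgfr1 match in an intron at chr8:25545215-25545238 on the minus strand. Capitals mark the SOX and octamer letters at Fgf4 and the octamer elsewhere.
Fgf4, SOX and octamer: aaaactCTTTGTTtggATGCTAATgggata
Dusp6, first octamer: gattaaaaATGCAAATtgctttgc
Dusp6, the other octamer: agtgttaaATGCTAATccaacatc
Etv4, octamer: attataaaATGCAAATgtggactt
Etv5, octamer: ctaagacaATGCTAATggcttctc
Fgfr1, octamer: cattttgcATGCAAATgggccgtt
A further octamer match in the Fgf4 3′ UTR, on the minus strand, is not printed. Both Dusp6 octamers lie inside an H3K27ac peak, and the other 4 sites lie outside the peak's edges, at 571 to 850 bases from its midpoint. The Fgf4 match holds the SOX2 and OCT4 letters, 3 bases apart, for which the Fgf4 enhancer is known.

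H3K27ac was lower after IAA in the windows of all 9 genes on the scale of the deposited RPKM, where the window of Fgfr2 holds peaks of its long GENCODE span and none near its RefSeq gene. It fell most at Spry2, to 39.6% of the uninduced level, to between 54.3% and 57.2% at Fgf4, Etv5, Dusp6 and Fgfr1, and to between 69.1% and 78.0% at Fgfr2, Spred1, Etv4 and Spry4. By limma over the mean RPKM of all protein-coding genes, 8 of the 9 passed a Benjamini-Hochberg adjusted p under 0.05 as lower, Spry4 did not, and 0 were higher, also at an unadjusted p under 0.05. Without Fgfr2, 7 of 8 passed as lower. The background is high: 86.7% of the 13025 genes tested passed as lower and 0.0768% as higher. Peaks were called on uninduced reads alone, which favours falls in every count here and below. Sites that gained the mark only after IAA could not be counted. The 3 IAA libraries lay below the 3 uninduced libraries at all 9 genes, as they did at 82.9% of the genes tested. A count of lower genes in this list is therefore close to what the genome shows, and the genes are described below by the size of their falls.

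**Figure D1:**
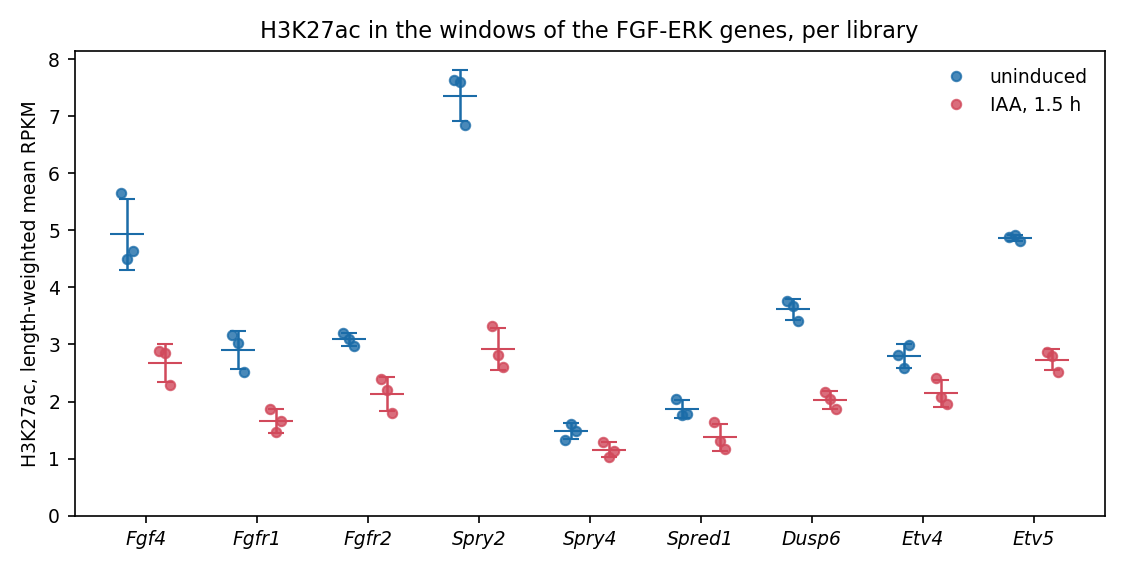
Length-weighted mean RPKM of the H3K27ac peaks in the window of each gene (y axis), in 3 uninduced and 3 IAA libraries. Points are libraries, and bars are the mean ± SD (n = 3). At every gene the highest IAA point lies below the lowest uninduced point, with the widest gap at Spry2 (7.36 against 2.92 RPKM) and the narrowest at Spry4 (1.48 against 1.15 RPKM).

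The median of the 9 changes was -0.81 on the log2 scale, and -0.82 without Fgfr2, beside -0.54 over all genes tested. Taken the other way, as the median level of the 9 genes in each library, log2 RPKM went from 1.63 ± 0.0485 (SD, n = 3) to 1.07 ± 0.179 (SD, n = 3), with a difference of -0.56 (exact permutation test, two-sided, p = 0.1; 3 libraries against 3 cannot give a smaller p). Relative to each library's median peak this level changed by 0.023 (exact permutation test, p = 0.4), and without Fgfr2 by -0.093 (exact permutation test, p = 0.1). The median level follows the genes in the middle of the order and not those with the largest falls. With libraries centred on the median peak, Spry2 alone of the 9 genes passed as lower and 0 passed as higher, with 0 higher also at an unadjusted p under 0.05. Of the 8 genes without Fgfr2, 4 were lower at that unadjusted threshold, namely Spry2, Fgf4, Dusp6 and Etv5. Under this centring 0.791% of all genes passed as lower and 0.299% as higher (limma).

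Of the 30 peaks at the 8 genes, 27 fell by limma at an adjusted p under 0.05, and 0 rose, also at an unadjusted p under 0.05. Over all peaks tested, 68.2% fell and 0.0605% rose. The exceptions were the single peaks of Spry4 and Spred1 and the peak over the first exon of Etv4, each within 1 kb of a start. All 30 changes were below 0, with a median of -0.80 and a range of -1.47 to -0.17 on log2(RPKM + 0.1), beside a median of -0.55 over all peaks. At 29 of the 30 peaks every IAA library was below every uninduced one, as at 71.2% of all peaks. The 30 peaks were stronger, with a median uninduced level of 3.90 RPKM against 2.44 RPKM over all peaks. The comparisons with all peaks make no allowance for that. Centred on the median peak, 6 of the 30 were lower, namely all 4 at Spry2, 1 at Fgf4 and 1 at Etv5, and 0 were higher, against 1.97% lower and 0.544% higher of all peaks. Of the 30, 13 were lower and 1 was higher at an unadjusted p under 0.05 with centring.

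**Figure D2:**
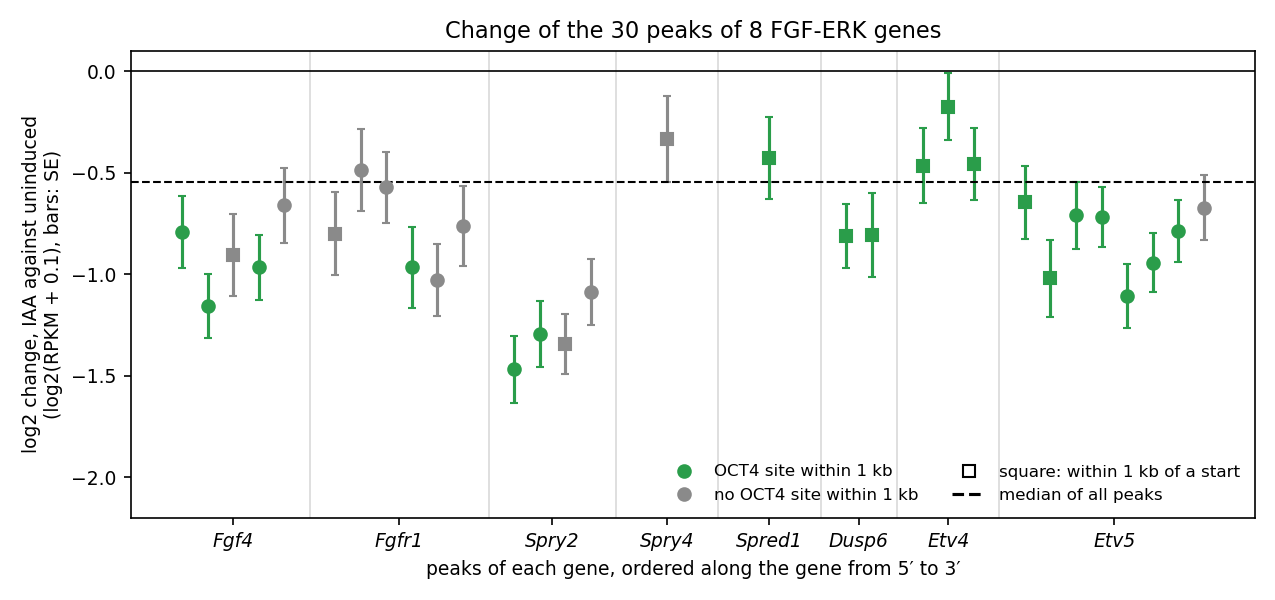
Log2 change of each of the 30 peaks after IAA on log2(RPKM + 0.1) (y axis), with the SE from limma (n = 3 against 3), ordered along each gene from 5′ to 3′. Green marks an OCT4 site within 1 kb, squares mark peaks within 1 kb of a transcription start, and the dashed line is the median of all peaks (-0.55). All 4 Spry2 peaks lie at or below -1.09, and the Spry4, Spred1 and Etv4 peaks and the Fgfr1 peak at -0.49 lie above the line.

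The 19 OCT4-marked peaks of the 8 genes had a median change of -0.81, and 17 of them fell. The 11 unmarked peaks had a median change of -0.76, and 10 fell. Among all peaks, marked peaks had a median of -0.71 with 85.2% falling, and unmarked peaks a median of -0.52 with 64.6% falling. With centring, 4 of the 19 marked peaks were lower, where 7.55% of all marked peaks were, and 2 of the 11 unmarked peaks, where 0.771% of all unmarked peaks were. Both of these unmarked peaks and 2 of the 4 marked ones were at Spry2, so the shares lean on 1 gene. At Spry2 and Fgf4 unmarked and marked peaks lie side by side, and the difference between marked and unmarked peaks within the 8 genes was not tested. The 18 peaks more than 1 kb from a start had a median change of -0.87, against -0.72 for the 12 near a start. In the same order, the medians were -0.74 and -0.64 over all marked peaks and -0.54 and -0.52 over all unmarked peaks. Every peak of Etv4, Spry4, Spred1 and Dusp6 is near a start, so this split also follows the genes, and it was not tested.

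Fgf4 encodes the secreted ligand that ESCs themselves produce. GENCODE places it at chr7:144847367-144865243 on the plus strand, with 1 transcript starting well upstream of the RefSeq start at 144861386, and its 5 peaks had 266 to 747 reads per library together. The mean was 5.65, 4.49 and 4.64 RPKM in the uninduced libraries and 2.89, 2.84 and 2.3 RPKM in the IAA libraries. The groups did not overlap, and uninduced replicate 1 stood above the other 2. The group means were 4.93 ± 0.63 and 2.68 ± 0.332 RPKM (SD, n = 3 in each), for a log2 change of -0.88 (SE 0.154, limma adjusted p = 2.19e-05), and 4.17% of all genes tested fell further. Relative to the median peak the change was -0.30 (limma adjusted p = 0.183).

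All 5 Fgf4 peaks fell. The OCT4-marked peak from 144863214 to 144864118 overlaps the 3′ UTR and ends a short distance before the SOX and octamer match. It held 6.60, 5.0 and 5.54 RPKM before and 2.69, 3.19 and 2.71 RPKM after IAA, a change of -0.97 (SE 0.16, limma adjusted p = 0.000246). Each IAA value was below each uninduced value by a wide margin. The largest fall was at the marked peak from 144858211 to 144858650, with its midpoint at -2955 bp from the RefSeq start, with 5.88, 4.97 and 5.29 RPKM before and 2.07, 2.65 and 2.37 RPKM after (change -1.16, limma adjusted p = 6.11e-05), and it was the 1 Fgf4 peak that also passed with centring (limma adjusted p = 0.0425). The strongest peak by RPKM lies over coding sequence near the RefSeq start, from 144861792 to 144862096, has no OCT4 mark, and held 8.32, 7.69 and 6.37 RPKM before and 5.98, 3.10 and 3.23 RPKM after IAA. There IAA replicate 1 lay close to the lowest uninduced library, and the others were much lower (change -0.90, limma adjusted p = 0.00209). The unmarked peak downstream of the gene from 144872164 to 144873520 changed least (-0.66).

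Fgfr1, the FGF receptor most associated with ESCs and the epiblast, lies at chr8:25513654-25575718 on the plus strand. Its 6 peaks averaged 3.16, 3.02 and 2.52 RPKM in the uninduced libraries and 1.87, 1.46 and 1.65 RPKM in the IAA libraries, from 147 to 349 reads per library. The groups did not overlap, and the group means were 2.90 ± 0.334 and 1.66 ± 0.205 RPKM (SD, n = 3 in each), for a log2 change of -0.81 (SE 0.167, limma adjusted p = 0.000197). Relative to the median peak it was -0.23, with overlapping libraries and a limma adjusted p of 0.49. Each of the 6 peaks fell, and 0 passed with centring.

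The Fgfr1 peaks are short and hold a median of 23 to 66 reads. The peak over the annotated start, from 25518796 to 25519140, held 2.57, 2.85 and 2.03 RPKM before and 1.62, 1.45 and 1.09 RPKM after (change -0.80, limma adjusted p = 0.00429). The only OCT4-marked peak, intronic from 25544301 to 25545010, held the most reads and went from 3.85, 3.61 and 2.80 RPKM to 2.27, 1.33 and 1.59 RPKM (change -0.97, limma adjusted p = 0.00128). An unmarked intronic peak from 25548143 to 25548481 fell by as much (change -1.03, limma adjusted p = 0.000334), and the intronic peak from 25536460 to 25536959 fell least (change -0.49, limma adjusted p = 0.0393).

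Spry2 encodes a Sprouty protein that restrains signalling downstream of receptor tyrosine kinases. It lies at chr14:105891947-105896819 on the minus strand, and its window held the highest H3K27ac of the 9 genes in uninduced cells. The 4 peaks averaged 7.63, 7.61 and 6.84 RPKM in the uninduced libraries and 3.32, 2.82 and 2.61 RPKM in the IAA libraries, from 262 to 875 reads per library. The highest IAA library, at 3.32, lay far below the lowest uninduced library, at 6.84. With a mean of 7.36 ± 0.45 RPKM before and 2.92 ± 0.369 RPKM after (SD, n = 3 in each), the log2 change was -1.34 (SE 0.15, limma adjusted p = 3.3e-09), and 0.269% of the genes tested fell further. Relative to the median peak the change was -0.76 (SE 0.0629, limma adjusted p = 0.00245).

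All 4 Spry2 peaks fell, with and without centring. The peak with the most reads covers the start and 5′ UTR, from 105895754 to 105896907, has no OCT4 mark, and held 9.21, 9.21 and 7.91 RPKM before and 3.69, 3.29 and 3.2 RPKM after IAA (change -1.34, SE 0.149, limma adjusted p = 1.67e-05). Upstream of it lie both marked peaks. The one from 105898531 to 105899406 went from 6.96, 7.30 and 6.91 RPKM to 3.45, 2.72 and 2.37 RPKM (change -1.29, limma adjusted p = 2.94e-05). The farther one, from 105901311 to 105901754 with its midpoint at -4713 bp from the start, went from 5.76, 5.85 and 5.60 RPKM to 2.45, 1.88 and 1.76 RPKM (change -1.47, SE 0.164, limma adjusted p = 1.69e-05), the largest fall of the 91 tested peaks. The intronic peak, unmarked, fell least (change -1.09). The change at the promoter lay within the range of its marked upstream peaks.

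Spry4, another Sprouty gene, had a change whose size could not be told from that of Etv4 (Spry4 minus Etv4 0.024, exact permutation test, p = 0.9), and both were the smallest of the 9 genes. It lies at chr18:38586247-38601415 on the minus strand, and its 1 peak, from 38600687 to 38601276 over the 5′ UTR and without an OCT4 mark, was the weakest of the 9 genes. It held 1.33, 1.61 and 1.49 RPKM in the uninduced libraries and 1.29, 1.04 and 1.13 RPKM in the IAA libraries, from only 22 to 34 reads. The groups were separated by the narrow gap between 1.29 and 1.33 RPKM. The group means were 1.48 ± 0.14 and 1.15 ± 0.131 RPKM (SD, n = 3 in each), for a log2 change of -0.36 (95% interval -0.80 to 0.08, limma adjusted p = 0.114). Relative to the median peak it was 0.22 (95% interval -0.14 to 0.58, limma adjusted p = 0.604), so at this depth neither direction was detectable.

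The falls of Spry2 and Spry4 were compared within each library, where a factor common to the library cancels. The log2 level of Spry2 minus that of Spry4 changed by -0.98, with no overlap between the conditions (exact permutation test, p = 0.1, the smallest possible; adjusted over the 36 pairs of genes, 0.164). Fgf4, with the next largest fall, gained 0.46 on Spry2 (Fgf4 minus Spry2), and Spry2 changed by -0.51 against Dusp6 and by -0.51 against Etv5, all with no overlap and the same exact permutation p. The exact permutation test cannot pass 0.05 for any pair with 3 libraries against 3. The changes of Dusp6 and Etv5 differed by -0.00019, with overlapping libraries (exact permutation test, p = 1; SD of the difference 0.0635 in uninduced and 0.0258 in IAA libraries).

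Spred1 encodes a Sprouty-related inhibitor of RAS signalling and lies at chr2:117121374-117182279 on the plus strand. Its 1 peak, OCT4-marked, lies just upstream of the start from 117120362 to 117120954, and held 2.05, 1.76 and 1.79 RPKM before and 1.63, 1.31 and 1.17 RPKM after IAA, from 24 to 48 reads. The groups did not overlap, at a level not far above the weakest gene. With a mean of 1.87 ± 0.159 RPKM before and 1.37 ± 0.238 RPKM after (SD, n = 3 in each), the log2 change was -0.46 (limma adjusted p = 0.0301 among genes). Tested among peaks on log2(RPKM + 0.1) the same peak did not pass (change -0.43, limma adjusted p = 0.0659), and the gene-level call was lost in 5 of the 6 fits that left out 1 library, with changes between -0.59 and -0.35. It was lost without any uninduced replicate (limma adjusted p = 0.138, 0.0571 and 0.0523 without replicates 1, 2 and 3), without IAA replicate 2 (0.0757) and without IAA replicate 3 (0.0744). The call was also lost with windows of 1 kb around starts (0.0636).

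Dusp6 encodes the phosphatase that removes activating phosphates from ERK in the cytoplasm. It lies at chr10:99263231-99267489 on the plus strand, with both its peaks OCT4-marked and within 1 kb of a start. H3K27ac averaged 3.77, 3.67 and 3.41 RPKM in the uninduced libraries and 2.17, 2.04 and 1.87 RPKM in the IAA libraries, from 159 to 366 reads. The spread within each group was small beside the gap between them. The group means were 3.62 ± 0.187 and 2.03 ± 0.153 RPKM (SD, n = 3 in each), for a log2 change of -0.84 (SE 0.155, limma adjusted p = 5.33e-05), and -0.25 relative to the median peak (limma adjusted p = 0.183).

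Its upstream peak, from 99261165 to 99262976, is the longest of the 30 and holds both octamers shown above. It went from 4.2, 3.93 and 3.65 RPKM to 2.36, 2.07 and 2.15 RPKM (change -0.81, SE 0.159, limma adjusted p = 0.000884). The peak over the 5′ UTR, from 99263410 to 99264054, started from a lower level, 2.55, 2.95 and 2.73 RPKM, and went to 1.64, 1.98 and 1.08 RPKM (change -0.81, limma adjusted p = 0.00438).

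**Figure D3:**
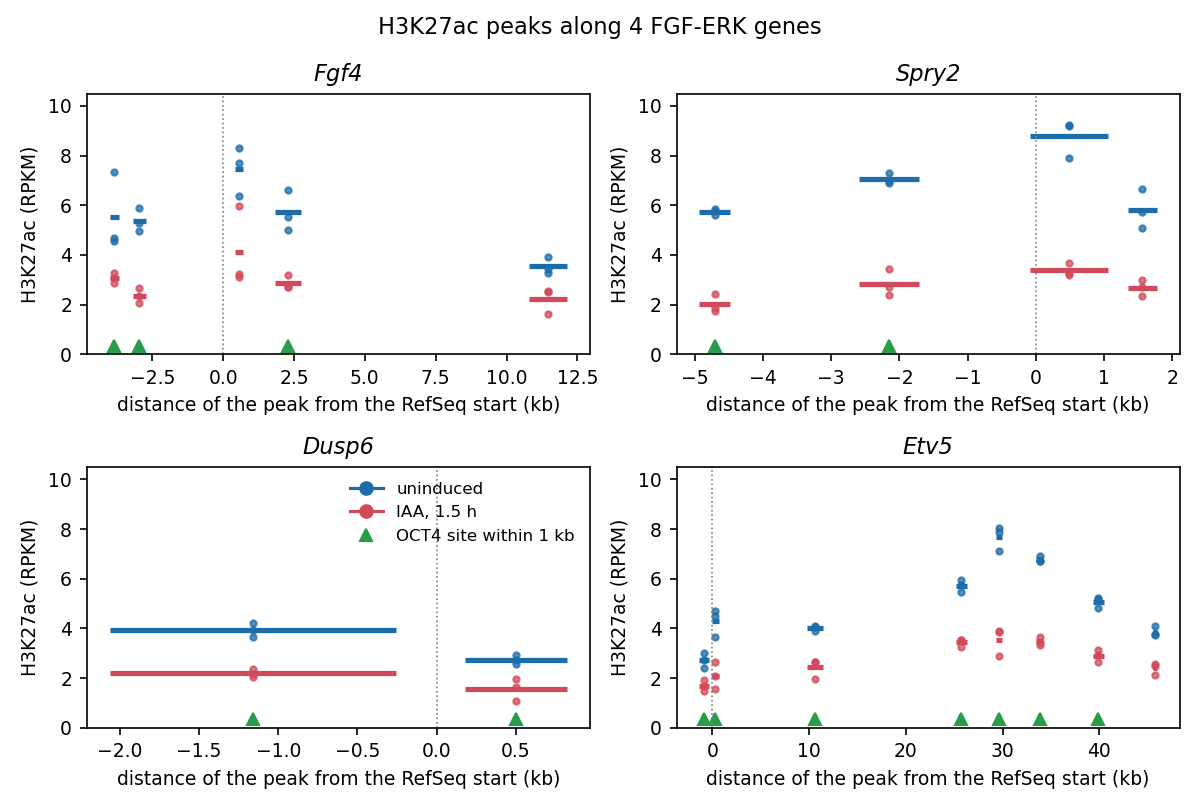
RPKM of each H3K27ac peak (y axis) against its distance from the RefSeq start in kb, in the direction of transcription, at Fgf4, Spry2, Dusp6 and Etv5. Lines span each peak at its mean, points are the 3 libraries of each condition, and triangles mark peaks within 1 kb of an OCT4 site. At Etv5 the highest peak lies 29661 bp inside the gene, at 7.69 RPKM before and 3.54 RPKM after IAA, above the peaks at the start.

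Etv4 and Etv5 encode closely related ETS transcription factors of the PEA3 group, both induced by ERK. H3K27ac was higher at Etv5 than at Etv4 in uninduced cells. Etv4 lies at chr11:101769742-101785371 on the minus strand, and all 3 of its peaks are OCT4-marked and within 1 kb of an annotated start. They averaged 2.82, 2.59 and 2.99 RPKM in the uninduced libraries and 2.41, 2.07 and 1.96 RPKM in the IAA libraries, from 146 to 249 reads. The highest IAA library came close to the lowest uninduced library. With a mean of 2.80 ± 0.202 RPKM before and 2.15 ± 0.236 RPKM after (SD, n = 3 in each), the log2 change was -0.38 (SE 0.159, limma adjusted p = 0.0241), and 86.2% of all genes fell further. This call was lost without uninduced replicate 1 (limma adjusted p = 0.0851), without uninduced replicate 3 (0.107) and without IAA replicate 2 (0.0791), as well as with the gene body alone (0.0698), and relative to the median peak the change was 0.20 (limma adjusted p = 0.436).

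The Etv4 peak over the first exon, from 101784706 to 101785296, held 3.17, 2.46 and 3.11 RPKM before and 2.63, 2.49 and 2.54 RPKM after IAA. It was the 1 peak of the 30 whose groups overlapped, with uninduced replicate 2 below all IAA libraries (change -0.17, limma adjusted p = 0.329). The upstream peak from 101786336 to 101787298 fell by 0.47 (limma adjusted p = 0.0326), and the peak near the 3′ end from 101771858 to 101772458 by 0.46 (limma adjusted p = 0.0306). All 3 peaks carry the OCT4 mark, and each changed by less than the median of all peaks (-0.55).

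Etv5 lies at chr16:22381309-22439719 on the minus strand and held 8 peaks, 7 of them OCT4-marked. They averaged 4.88, 4.91 and 4.81 RPKM in the uninduced libraries and 2.88, 2.80 and 2.52 RPKM in the IAA libraries, from 639 to 1412 reads, the deepest coverage of the 8 genes. The uninduced libraries lay within 0.1 RPKM of each other, and all IAA libraries were far below. The group means were 4.87 ± 0.0497 and 2.73 ± 0.188 RPKM (SD, n = 3 in each), for a log2 change of -0.84 (SE 0.149, limma adjusted p = 3.14e-05), and -0.25 relative to the median peak (limma adjusted p = 0.153). Within libraries, the log2 level of Etv4 minus that of Etv5 rose by 0.45, with no overlap between conditions (exact permutation test, p = 0.1, the smallest possible).

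All 8 Etv5 peaks fell, with changes of -1.11 to -0.65. The largest fall was in an intron, at the marked peak from 22409613 to 22410205, which went from 7.13, 7.90 and 8.03 RPKM to 3.91, 3.84 and 2.88 RPKM (SE 0.158, limma adjusted p = 7.93e-05) and also passed with centring (limma adjusted p = 0.012). Next to it, the intronic peak from 22405393 to 22406104 went from 6.93, 6.71 and 6.72 RPKM to 3.34, 3.66 and 3.45 RPKM (change -0.94, limma adjusted p = 0.000144). Both lie in a run of 4 marked peaks, 25736 to 39864 bp from the RefSeq start, that were the strongest of the gene. At the start, the 5′ UTR peak from 22438920 to 22439564 went from 4.71, 4.52 and 3.65 RPKM to 2.64, 1.55 and 2.11 RPKM (change -1.02, limma adjusted p = 0.000563), and the peak just upstream from 22439910 to 22440895 fell least (change -0.65, limma adjusted p = 0.0071). The peak with the most reads, in an intron from 22428122 to 22429825, fell by 0.71 (limma adjusted p = 0.00266).

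Fgfr2 encodes the FGF receptor associated with primitive endoderm and trophoblast in the early embryo. GENCODE vM21 gives it a span of 2960.9 kb, chr7:130162451-133123350 on the minus strand, because 1 of its 27 transcripts runs over 1 Mb. That span overlaps 30 other protein-coding genes, among them Tacc2, Htra1 and Ctbp2. RefSeq places Fgfr2 within 104.358 kb, chr7:130162451-130266808, where 0 of the 31131 peaks lie within the gene or 10 kb of it and the nearest peak is 167563 bp away. The 64 peaks that the rule assigns to Fgfr2 therefore all lie outside its RefSeq locus, and no value here is a measurement at the RefSeq gene. A gene without a called peak is not shown to lack the mark, since peaks were called on the uninduced reads above a threshold.

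Over these 64 peaks the mean was 3.2, 3.10 and 2.97 RPKM in the uninduced libraries and 2.39, 2.21 and 1.81 RPKM in the IAA libraries. With a mean of 3.09 ± 0.112 RPKM before and 2.14 ± 0.299 RPKM after (SD, n = 3 in each), the log2 change was -0.54 (limma adjusted p = 0.00296), and 0.039 relative to the median peak (95% interval -0.12 to 0.20). Of the 61 tested peaks, 43 fell and 0 rose, at 70.5% close to the background over all peaks, their median change was -0.52, and 0 passed with centring in either direction, where 2 were lower and 3 higher at an unadjusted p under 0.05 (limma). The OCT4 mark was on 6 of the 64, and 6 of these 6 fell, with a median change of -0.63. Of all OCT4-marked peaks 85.2% fell, with a median of -0.71, and the difference from these 6 was not tested. The largest fall was at an unmarked peak inside Pstk from 131370951 to 131371759 (change -0.89). The smallest change was at another peak of Pstk from 131380958 to 131381513 (-0.025, 95% interval -0.67 to 0.62). That peak held only 6 to 14 reads per library, so its change is poorly measured. The peaks within 1 kb of the long transcript's start, from 133122782 to 133123134 and from 133123639 to 133125028, also overlap Ctbp2, and changed by -0.74 and -0.67.

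**Figure D4:**
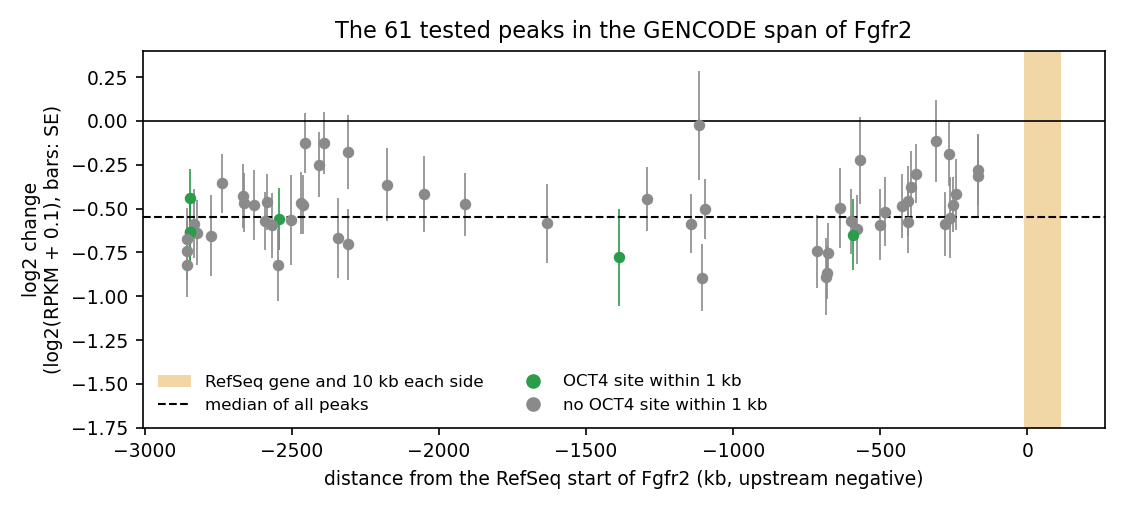
Log2 change of the 61 tested peaks in the GENCODE span of Fgfr2 on log2(RPKM + 0.1) (y axis, bars show the SE) against distance from the RefSeq start in kb, upstream negative. The shaded band is the RefSeq gene with 10 kb on each side and holds 0 peaks, and the peaks scatter around the dashed median of all peaks (-0.55), with a median of -0.52.

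Spry2 was highest and Spred1 and Spry4 lowest in both conditions, and the genes lay closer together after IAA. Fgfr2 is ranked here by the peaks of its long GENCODE span, none of them near its RefSeq gene. In uninduced cells, Spry2 was highest, then Fgf4 and Etv5, which overlapped, then Dusp6, Fgfr2, Fgfr1, Etv4, Spred1 and Spry4. Of these last, Fgfr2 and Fgfr1, and Fgfr1 and Etv4, overlapped with their neighbour. After IAA, the ranges of Spry2, Etv5 and Fgf4 over the libraries overlapped, with means of 2.92, 2.73 and 2.68 RPKM. The ranges of 7 of the 8 neighbouring pairs overlapped, the exception being Dusp6 and Fgfr1. Such ranges include differences in scale between libraries. Within each IAA library Spry2 lay above Etv5 (3.32 against 2.88, 2.82 against 2.80 and 2.61 against 2.52 RPKM). Fgf4 lay above Spry2 in IAA replicate 2 (2.84 against 2.82 RPKM) and below it in replicates 1 and 3. Etv4 stood above Fgfr2 and Dusp6 after IAA and below both before, with overlapping neighbours. By distance over the 6 libraries of log2 mean RPKM, the genes most like Spry2 were Sall4, which encodes a pluripotency-associated zinc finger factor (distance 0.182, from 7.39 to 2.84 RPKM), H2-M5 and Sox21. Those most like Spry4 were Lrch1, Tmem163 and Tmem237.

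The rest of the pathway was described with a list of 79 genes by role, the 9 genes included, of which 63 had a peak in their window and 60 were tested. H3K27ac fell at 52 of the 60 (limma adjusted p under 0.05) and rose at 0, with all 60 changes below 0 and a median of -0.54, the same as over all genes. This count is at the background, since 86.7% of all genes tested fell. Centred on the median peak, Spry2 was the 1 gene of the 60 that passed as lower and 0 were higher, with 8 lower and 2 higher at an unadjusted p under 0.05. The genes that did not pass were Fgf2, Fgf8, Fgf23, Fgfr4, Hras, Spry4, Egr1 and Jun. By role, the gene group with the lowest median was the feedback inhibitors, at -0.66, and the median of the other groups lay between -0.62 and -0.52.

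The counts by role stand beside the same 86.7%, and none is read as a result about its role. Among ligands, 7 of 10 tested genes fell. Fgf10 had the largest change of the list, -1.54 (limma adjusted p = 1.22e-05), from 1 weak peak with a mean of 12.7 reads, and Fgf2 one of the smallest, -0.31 (limma adjusted p = 0.0641). Among receptors and co-receptors, 3 of 4 fell, Fgfr2 by its GENCODE span among them, with Fgfr4 at -0.31 (limma adjusted p = 0.101). All 10 adaptors and RAS regulators fell, such as Grb2, which links receptors to RAS activation (change -0.75, limma adjusted p = 0.000335). In the RAS-RAF-MEK-ERK cascade 10 of 11 fell, with Map2k1, the gene of the kinase MEK1, at -0.63 (limma adjusted p = 0.000741).

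Among feedback inhibitors 9 of 10 fell, near the 86.7% of all genes. After Spry2, the largest change was at Il17rd, whose product Sef inhibits FGF signalling, at -1.04 (from 2.77 to 1.35 RPKM, limma adjusted p = 1.15e-05). Spry1, the other Sprouty gene tested, changed by -0.47 (limma adjusted p = 0.0205). Among ETS and ERK-responsive factors 13 of 15 fell, and Etv1, the third gene of the PEA3 group, went from 3.86 to 1.95 RPKM (change -0.99, limma adjusted p = 4.11e-06), with both of its peaks OCT4-marked. Jun, an immediate early gene, had the smallest change of the list, -0.20 (limma adjusted p = 0.225).

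**Figure D5:**
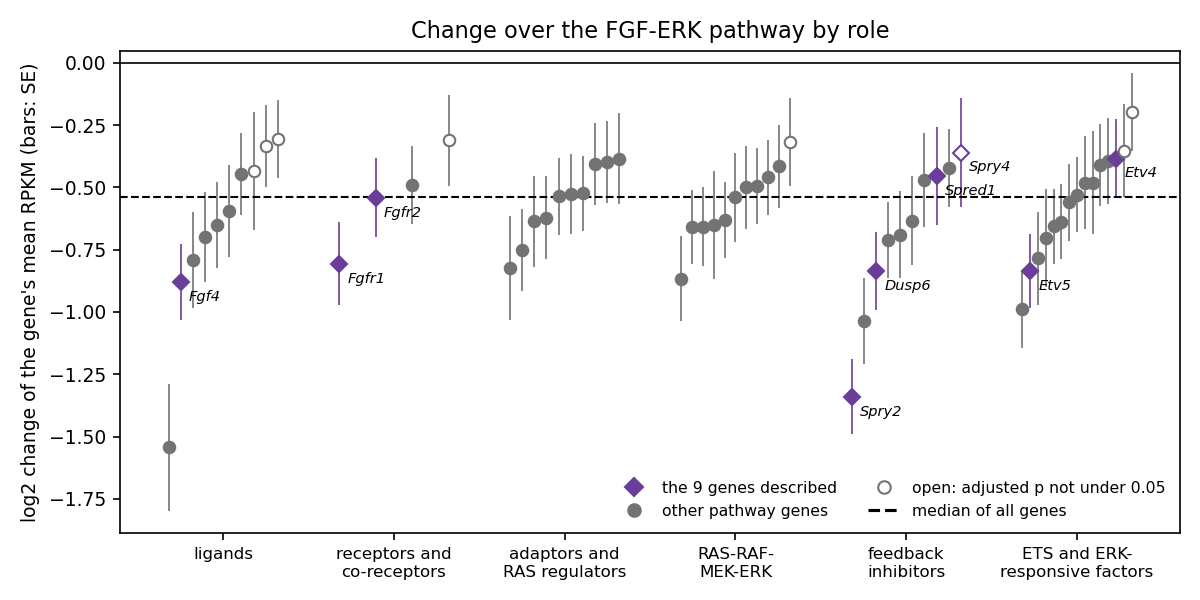
Log2 change of the mean RPKM of each tested pathway gene after IAA (y axis, bars show the SE, n = 3 against 3), by role. Diamonds are the 9 genes described, circles the other pathway genes, open symbols did not pass a limma adjusted p under 0.05, and the dashed line is the median of all genes tested (-0.54). All 60 points lie below 0, and Spry2 (-1.34) stands lowest of the feedback inhibitors.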

How the data were processed

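Libraries from H3K27ac immunoprecipitates, 3 uninduced and 3 IAA, were grouped by the sample labels. The labels name the antibody as ab4792 and the paper as ab4729. The authors aligned reads to GRCm38 with Bowtie2 2.3.4.3, removed duplicates, called peaks with MACS2 on pooled uninduced reads and deposited RPKM values from DiffBind (versions of the last 2 not given in the sources used here). The RPKM denominator is the whole library, so a shift in the share of reads in peaks moves all peaks together, and no input or spike-in was used here. All values were whole multiples of 1 read (tolerance 0.01), from which reads were recovered. Peak lengths are end minus start, and coordinates are as deposited. The pooled columns equal the mean of the 3 libraries.

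Peaks with at least 0.5 RPKM in either condition were tested on log2(RPKM + 0.1), which understates changes of weak peaks, and genes on log2 of the length-weighted mean RPKM, both with limma 3.58.1 in R 4.3.3 (eBayes with trend and robust) and Benjamini-Hochberg adjustment over all features. The limma script was checked on simulated data. Medians and gene pairs were compared by exact permutation over 20 labellings. Genes came from GENCODE vM21 and RefSeq, and motif letters from the GRCm38 sequence of RefSeq. Motif windows of 1000 bases were tried first, and 3000 bases were chosen after seeing those results.

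The members, the pathway and marker lists and the tests were chosen with earlier results of these data known. The genes and peaks named are the 9 members, for each member the peak with the most reads, those within 1 kb of a start and those with the largest and smallest change, and in the pathway list the 3 largest falls and 3 smallest changes among other genes with at least 10 reads. For Spry2 and Spry4 the 3 most similar genes are also named. Grb2, Map2k1, Spry1, the genes overlapping the Fgfr2 span and other Fgf4, Fgfr1, Spry2 and Etv5 peaks were named after their values were seen. The alternatives tried were other pseudocounts, filters, scalings, windows and weights, limma settings, the replicate number as a block, and leaving out each library.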

Additional observations from a re-analysis of the deposited data

How the results depend on the processing

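With centring on the median peak, quantile normalization, and centring with the replicate block, 6, 5 and 5 of the 91 tested member peaks were lower in place of 70, and 1 of the 9 genes in place of 8. RefSeq spans with centring also gave 1, of 8 genes. Among all 26457 peaks tested, these scalings gave 520, 447 and 311 lower in the same order. Among all 13025 genes they gave 103, 152 and 19, and RefSeq spans with centring 98 of 12863. Such scalings take out any common shift, and under each of them Fgfr2, Spry4, Spred1 and Etv4 changed sign, to 0.039, 0.22, 0.13 and 0.20 with centring (the same with the block, and for the last 3 with RefSeq spans) and 0.0090, 0.22, 0.10 and 0.16 with quantile normalization. Spry2 alone kept its call. Leaving out 1 library gave 42 (without uninduced replicate 1) to 71 (without IAA replicate 1) lower peaks and 6 to 8 lower genes, and at the 8 genes 23 to 28 of the 30 peaks. The whole series moved with them, from 10378 to 19611 of 26457 peaks and from 8464 to 11906 of 13025 genes. No peak or gene of the 9 was called higher in any alternative. All alternatives drew on the same peaks, called on uninduced reads alone, so they cannot show whether sites outside those peaks gained the mark. Without the Fgfr2 peaks 27 of 30 were lower, and limma without trend and robust called Spry4 lower too (adjusted p = 0.0443, where the largest over its unscaled alternatives was 0.297).

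The change of the median level of the 9 genes, -0.56, was -0.70 with 1 kb windows around starts and between -0.65 and -0.47 without 1 library. Relative to the median peak, its value of 0.023 was 0.095 with the gene body alone, and turned to -0.070 with 50 kb windows, -0.12 around starts, -0.036 with only peaks above the filter, -0.0085 unweighted, and -0.093 with RefSeq spans or without Fgfr2. It ran from 0.0094 to 0.048 without 1 library. RefSeq spans, the settings without Fgfr2 and the 2 double settings were chosen after seeing the data.

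Deviations of same-numbered libraries were not positively correlated (-0.0143, -0.091 and -0.0614), so the numbers were not taken as pairs. The median peak did fall in order of the replicate number in both groups. On log2(RPKM) it was 1.33, 1.31 and 1.24 in uninduced and 0.87, 0.74 and 0.52 in IAA libraries. With the replicate block 71 peaks and 8 genes were lower, and no call of the 9 genes changed. In the whole series that fit gave 18898 of 26457 peaks and 11724 of 13025 genes as lower. Spry4 and Spred1 rest on 22 to 48 reads per library, where the depth limits what can be detected.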
